A study of Mus musculus with 8 samples.

Results

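The genes described here are 10 genes of platelet-derived growth factor (PDGF) signalling, pericytes and renin cells, out of 23337 genes in the deposited table. They were taken by symbol. They are the ligand genes Pdgfa, Pdgfb and Pdgfc, the receptor genes Pdgfra and Pdgfrb, the pericyte-associated genes Cspg4, Rgs5, Mcam and Des, and the renin gene Ren1. All 10 were found in the table. Over the 8 libraries 9 of them reached a mean of 10 normalised counts and were tested. Ren1 did not reach that level.

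The libraries, 4 of mutants and 4 of controls, hold poly(A) RNA of whole embryonic mouse kidneys at E13.5, an age counted in days of gestation. Mutant kidneys were Foxd1Cre;Smo(flox/-), so they carried Cre recombinase driven from Foxd1, which marks the progenitors of the renal stroma. Their Smo alleles were 1 floxed and 1 null. Control kidneys were Smo(flox/+), with a floxed and a wild type copy. Both groups shared the floxed allele and a mixed C57BL/6 background. Mutants differed from controls in Cre, in the null copy present in every cell and in the loss of Smo from the Foxd1 lineage, so a difference belongs to the whole genotype. Other renal cells kept the floxed copy. The labels do not name the Cre allele, and the commonly used one disrupts Foxd1. They also do not say that samples came from separate embryos, so the p-values below reflect variation among these samples alone, which may in part be technical. Sex-linked transcripts, given below, differed within each group, so each group held more than 1 embryo.

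PDGF ligands are secreted dimers that bind receptor tyrosine kinases. PDGF receptor alpha answers mainly to chains A and C and is found in interstitial fibroblasts and their progenitors. PDGF receptor beta answers to chains B and D and marks pericytes and mesangial cells. In the developing kidney, endothelium supplies PDGF-B to cells bearing receptor beta, which then settle around capillaries. Pericytes, mesangial cells and renin cells are descendants of Foxd1-positive stroma, the compartment in which the mutants lost Smo.

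The libraries held 10288191 to 13494079 reads in genes. Smo, the deleted gene, stood at 509 to 553 normalised counts in mutants and 2152 to 2294 in controls, matching the labels of all 8 libraries. The hedgehog target gene Gli1 stood at 220 to 286 in mutants and 374 to 452 in controls. The other genes of the planned genotype check were Ptch1, Hhip and Foxd1. Ptch1 had 478 to 538 in mutants and 574 to 852 in controls (adjusted p = 0.164 by limma). Hhip had 52.6 to 57.3 and 55.8 to 82.5, with overlap (adjusted p = 0.739 by limma). Foxd1 had 469 to 738 in mutants and 1038 to 2039 in controls (log2 fold change -1.29, adjusted p = 0.0251 by limma). The sum of 12 skeletal muscle markers was 85.1 to 1916 in mutants and 101 to 3269 in controls, highest in control 2 and mutant 2. Control 4 and mutant 2 held Y-linked Ddx3y at 1518 and 1390, against no more than 1.7 in the other 6. X-linked Xist stood at 16.9 and 23.4 in control 4 and mutant 2, against 26989 to 39486 in the other 6. Control 4 stood apart from the other controls, with a chi-square per degree of freedom of 7.41 to 10.98 against each of them. Controls 1 to 3 gave 3.28 to 4.82 among themselves and the mutants 2.89 to 6.07. The chi-square covered all tested genes, Xist and Ddx3y included, and their part in it was not tested. Renal markers were present in every library: 8 nephron progenitor markers summed to 11044 to 11752 in mutants and 8873 to 10124 in controls, and 10 cortical stroma markers to 16136 to 19982 in mutants and 21685 to 23892 in controls.

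No gene among the 9 tested passed the threshold, an adjusted p of 0.05 by limma over all 13692 tested genes. Of all tested genes 0.570% passed, 0.124% higher and 0.446% lower in mutants. At an unadjusted p under 0.05 there were 4 of the 9, against 8.70% of all tested genes. Pdgfc and Des had higher values in mutants, against 3.53% of all genes in that direction, and Cspg4 and Pdgfra lower ones, against 5.17%. In 2 of the 9, Cspg4 and Pdgfc, the 4 mutant libraries did not overlap the 4 control libraries, against 5.31% of all tested genes (2.31% with mutants higher and 3.00% with mutants lower). Tested on the recovered reads, edgeR called 0 of the 9 (0.577% of all genes) and DESeq2 called 1, Pdgfc (1.56% of all genes). With the sample number as a replicate block limma called 3 (1.69% of all genes). These were Cspg4 (adjusted p = 0.0392), Pdgfc (0.0369) and Des (0.0263), but the numbers were not taken to pair samples, as described in the closing section. The authors' deposited table called 0 (0.614% of its genes with a p-value). The median log2 fold change of the 9 was -0.060, and 0.0037 over all tested genes. Of the 9, 2 had positive and 7 negative fold changes. The plot of normalised counts by library shows the values behind these counts.

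**Figure D1:**
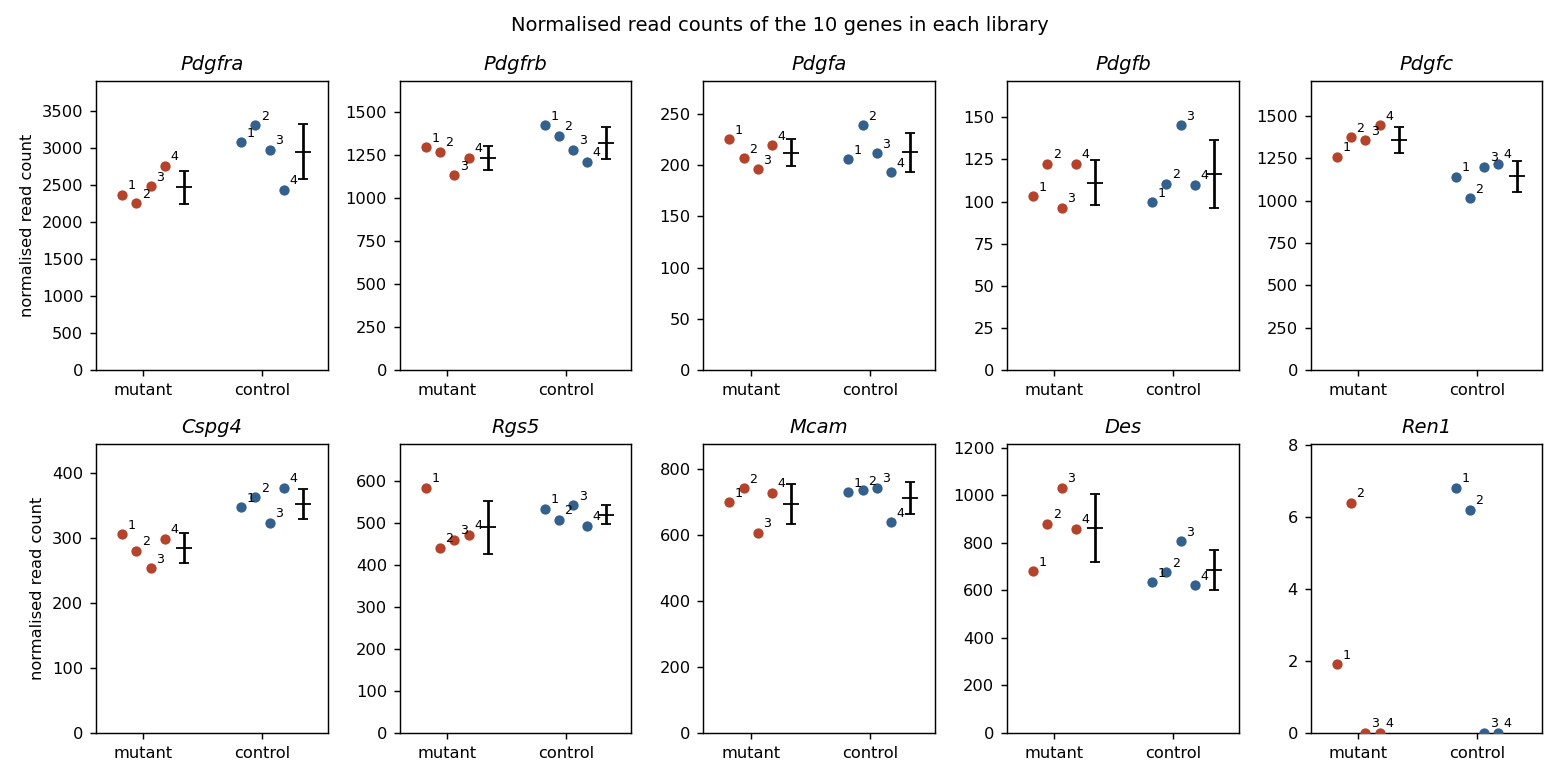
Normalised read counts (vertical axes, from 0) of the 10 genes in each mutant library (red) and control library (blue), numbered as in the labels. Horizontal marks with bars are the mean and SD of 4 libraries, not drawn for Ren1. Groups are apart for Pdgfc and Cspg4 and overlap for the other 8 genes.

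Among the ligands, Pdgfc had higher values in the mutants. It encodes PDGF-C, a chain that is secreted in latent form and acts through receptor alpha once cleaved. Pdgfc stood at 1258, 1374, 1355 and 1445 normalised counts in mutants 1 to 4, against 1140, 1015, 1198 and 1217 in controls 1 to 4. Every mutant lay above every control, by a margin as small as the gap between mutant 1 and control 4. The means were 1358 ± 77.1 in mutants and 1142 ± 91.0 in controls (SD, n = 4 each), a difference of 18.8%. The log2 fold change was 0.25 (SE 0.061, 95% interval 0.12 to 0.38, adjusted p = 0.123 by limma). Over the 70 possible arrangements of the libraries the exact permutation p was 0.0286 (two-sided), which no separation of 4 from 4 can undercut. By DESeq2 on the recovered reads Pdgfc passed (log2 fold change 0.25, adjusted p = 0.0221). In the authors' deposited table its adjusted p was 0.0631. Leaving out 1 library at a time gave log2 fold changes of 0.20 to 0.29 and limma adjusted p-values of 0.0548 (without control 4) to 0.314 (without mutant 3).

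The gene lies on chromosome 3 from 81036416 to 81214040 of GRCm38, on the plus strand. Its promoter window is shown because Pdgfc was 1 of the 2 genes whose groups did not overlap. Windows span 250 bases before to 50 bases after the start site of RefSeq (GRCm38.p6), printed 5′ to 3′ on the gene's strand. They were searched on both strands for 7 motifs. These were the GLI motif of hedgehog signalling (GACCACCCA), the TATA box (TATAAA), the cAMP response element (TGACGTCA), the RBPJ motif of Notch signalling (GTGGGAA), the CCAAT box (CCAAT), the GC box (GGGCGG) and an E-box (CAGCTG). Matches are in capitals. No 2 of the matches printed here overlap. The window of Pdgfc at chr3:81036166-81036465 held none of the 7.
Pdgfc: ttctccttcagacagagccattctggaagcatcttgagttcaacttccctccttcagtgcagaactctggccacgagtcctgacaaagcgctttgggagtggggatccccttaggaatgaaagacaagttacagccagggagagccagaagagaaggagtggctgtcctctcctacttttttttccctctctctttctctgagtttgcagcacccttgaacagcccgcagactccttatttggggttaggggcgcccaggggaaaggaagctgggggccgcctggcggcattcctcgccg

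Windows were found for 8 of the 10 genes, and not for Pdgfb and Pdgfrb. None of the 8 held the GLI letters, which occurred in 0.253% of all 32851 windows, or the RBPJ letters, which occurred in 6.38%. These absences say only that the letters are not in these windows.

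Pdgfa and Pdgfb differed by less than the spread between libraries. Pdgfa encodes the A chain, made largely by epithelia and acting on receptor alpha. It stood at 225, 207, 196 and 219 in mutants 1 to 4, against 206, 239, 211 and 193 in controls 1 to 4. The ranges lay almost on top of each other, with means of 211.8 ± 13.1 in mutants and 212.1 ± 19.4 in controls (SD, n = 4 each). Their log2 fold change was -0.00024 (95% interval -0.18 to 0.18, adjusted p = 0.9995 by limma).

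Pdgfb encodes the B chain, the endothelial signal to pericytes. Values were 103, 122, 96.3 and 122 in mutants 1 to 4, against 99.5, 111, 145 and 110 in controls 1 to 4. Control 3 was the highest library and mutant 3 the lowest. Mutants over controls, Pdgfb had a log2 fold change of -0.060 (95% interval -0.35 to 0.24, adjusted p = 0.951 by limma). Markers of the endothelium, the tissue that makes PDGF-B, summed to 5288 to 6712 in mutants and 6088 to 7093 in controls over 10 genes, and none of the 10 was called.

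Among the receptors, Pdgfra had lower values in most mutants. Its levels were 2374, 2260, 2490 and 2769 in mutants 1 to 4, against 3082, 3315, 2981 and 2443 in controls 1 to 4. All mutants lay below controls 1, 2 and 3, and control 4 lay among the mutants. The means were 2473 ± 218 in mutants and 2955 ± 369 in controls (SD, n = 4 each), a difference of -16.3%. The log2 fold change was -0.25 (SE 0.087, 95% interval -0.44 to -0.06, adjusted p = 0.355 by limma).

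Pdgfra passed the threshold only in fits without control 4, the control that stood apart. The part of control 4 in this outcome was not tested. Without control 4 the log2 fold change was -0.34 and passed (adjusted p = 0.0264 by limma, in a fit that called 1.35% of all tested genes). In the other 7 fits with 1 library left out the adjusted p was 0.214 or higher. Control 4 and mutant 2 were the libraries with Y-linked transcripts, and without both the log2 fold change was -0.30 (adjusted p = 0.0492 by limma, 1.07% of all tested genes called). Without controls 1 and 2 it was -0.13 (adjusted p = 0.715 by limma, 0.212% called), and without control 2 and mutant 2 it was -0.15 (adjusted p = 0.940 by limma, 0.0146% called). The 10 cortical stroma markers were lower in every mutant than in every control by sum, with 8 negative and 2 positive fold changes. They shared the direction of Pdgfra and Cspg4 between the groups, but not their order over the libraries. The sum was lowest in mutant 1 (16136), where Cspg4 was the highest of the mutants (306). Control 4, with the lowest Pdgfra of the controls, had a sum of 22500. The part of the stroma markers in these values was not tested. In such bulk samples fewer cells of a type and less RNA per cell cannot be told apart.

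Pdgfrb, the receptor gene of pericytes and mesangial cells, differed less. It stood at 1293, 1268, 1132 and 1233 in mutants 1 to 4, against 1421, 1359, 1278 and 1210 in controls 1 to 4. The groups overlapped, with 3 mutants above control 4. The means were 1232 ± 70.6 in mutants and 1317 ± 92.5 in controls (SD, n = 4 each), and the log2 fold change was -0.096 (95% interval -0.22 to 0.03, adjusted p = 0.732 by limma). Its spread was small, with a coefficient of variation of 5.73% in mutants and 7.02% in controls. Without mutant 3 the log2 fold change of Pdgfrb was -0.056, without control 1 it was -0.058, and without controls 1 and 2 it was -0.016 (adjusted p = 0.948, 0.867 and 0.965 by limma). Whether the changes of Pdgfra and Pdgfrb differ from each other was not tested.

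Cspg4 had lower values in the mutants. It encodes the NG2 proteoglycan, a surface protein of pericytes that is also found on glial progenitors and immature muscle. Cspg4 stood at 306, 280, 253 and 299 in mutants 1 to 4, against 347, 363, 324 and 377 in controls 1 to 4. Every mutant lay below every control. The means were 284 ± 23.4 in mutants and 353 ± 22.9 in controls (SD, n = 4 each), a difference of -19.4%. The log2 fold change was -0.31 (SE 0.076, 95% interval -0.48 to -0.14, adjusted p = 0.123 by limma), and the exact two-sided permutation p was 0.0286. Adjusted p-values were 0.120 by edgeR, 0.0700 by DESeq2 and 0.177 in the authors' deposited table. With 1 library left out, the log2 fold change lay between -0.35 and -0.26, and no such fit called it. A list of 10 neural crest, glial and neuronal markers summed to 388 to 447 in mutants and 360 to 420 in controls, with mutant and control libraries overlapping.

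Cspg4 lies on chromosome 9 from 56865033 to 56899870 of GRCm38, on the plus strand, and no exon of an opposite-strand gene overlaps its exons. Its promoter window, shown as that of the other gene without overlap between groups, is at chr9:56864854-56865153. The capitals are 2 matches to the GC box, read on the opposite strand. GC boxes occurred in 35.7% of all windows, and in those of 4 of the 8 genes (Cspg4, Des, Mcam and Pdgfa).
Cspg4: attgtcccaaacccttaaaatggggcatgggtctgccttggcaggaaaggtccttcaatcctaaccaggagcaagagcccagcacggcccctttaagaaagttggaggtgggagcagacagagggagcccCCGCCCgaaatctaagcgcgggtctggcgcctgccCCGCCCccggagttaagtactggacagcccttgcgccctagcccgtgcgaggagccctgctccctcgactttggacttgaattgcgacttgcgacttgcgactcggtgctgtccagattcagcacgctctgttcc

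Rgs5 and Mcam were close between the groups. Rgs5 encodes a regulator of G-protein signalling that is widely used as a pericyte marker. It stood at 583, 441, 460 and 471 in mutants 1 to 4, against 534, 508, 543 and 494 in controls 1 to 4. Mutant 1 was the highest of all libraries, while the other 3 mutants lay below every control. For Rgs5 the log2 fold change was -0.095 (95% interval -0.27 to 0.08, adjusted p = 0.825 by limma). The coefficient of variation was 13.1% in mutants and 4.39% in controls. Without mutant 1 the log2 fold change was -0.18 (adjusted p = 0.349 by limma).

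Mcam encodes the adhesion molecule CD146 of endothelium and pericytes. Values were 698, 741, 606 and 727 in mutants 1 to 4, against 728, 735, 742 and 637 in controls 1 to 4. Mutant 3 and control 4 were the low libraries of their groups. For Mcam the log2 fold change was -0.038 (95% interval -0.19 to 0.12, adjusted p = 0.939 by limma).

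Des had higher values in most mutants. It encodes desmin, an intermediate filament protein of mesangial cells, pericytes and muscle. Des stood at 679, 880, 1031 and 858 in mutants 1 to 4, against 635, 675, 805 and 621 in controls 1 to 4. Mutants 2, 3 and 4 lay above every control, and mutant 1 lay below control 3. The means were 862 ± 144 in mutants and 684 ± 84.1 in controls (SD, n = 4 each), a difference of 26.0%. The log2 fold change was 0.33 (SE 0.12, 95% interval 0.07 to 0.58, adjusted p = 0.378 by limma). It lay between 0.23 (without mutant 3) and 0.43 (without mutant 1) when 1 library was left out, and no such fit called it. The coefficient of variation was 16.7% in mutants, the widest there among the 9 genes described here, and 12.3% in controls.

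Skeletal muscle also makes desmin, and its markers varied between libraries. Mutant 3, with the highest Des level, had the lowest sum of the 12 skeletal muscle markers, 85.1, and the muscle myosin gene Myh3 at 3.4. Control 2, with the highest sum, 3269, and Myh3 at 1105, had Des at 675. With the skeletal muscle score as a covariate the log2 fold change of Des was 0.32 (adjusted p = 0.386 by limma, in a fit that called 0.774% of all tested genes). The gene closest to Des in pattern over the libraries was Casq1, the calsequestrin gene of skeletal muscle, with a mean of 28.8 in mutants and 25.4 in controls. The 8 vascular smooth muscle markers, which include the actin gene Acta2, summed to 1420 to 1684 in mutants and 1627 to 2185 in controls, with the lowest sum in mutant 3. The vascular smooth muscle sum was thus lower, and Des higher, in the mutant means. How much of the Des values came from muscle cells was not tested.

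Des lies on chromosome 1 from 75360329 to 75368579 of GRCm38, on the plus strand. Its window at chr1:75360042-75360341 is shown for the gene with the largest positive fold change of the 9. The capitals are 2 matches to the GC box on the opposite strand and, nearest the start, the E-box CAGCTG at position -36, a letter pattern known from muscle promoters. The E-box occurred in 16.3% of all windows, and in those of Des and Rgs5 here.
Des: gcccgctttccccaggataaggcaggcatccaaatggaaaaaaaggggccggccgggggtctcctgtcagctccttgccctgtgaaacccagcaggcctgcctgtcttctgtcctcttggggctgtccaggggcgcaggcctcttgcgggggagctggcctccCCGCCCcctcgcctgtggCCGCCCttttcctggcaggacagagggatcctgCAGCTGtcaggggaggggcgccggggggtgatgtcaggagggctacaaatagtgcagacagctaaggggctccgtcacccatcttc

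**Figure D2:**
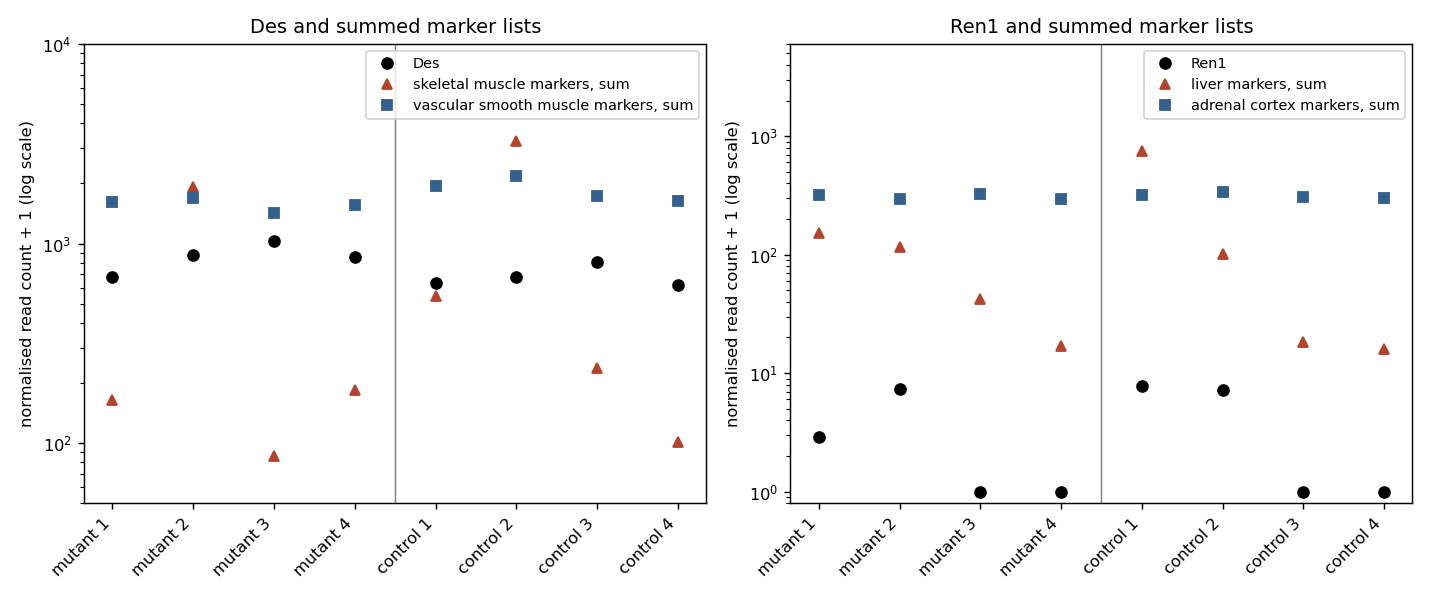
Normalised read count + 1 on a log scale (vertical axes) in the 4 mutant and 4 control libraries (horizontal axes). Black circles are Des (left) and Ren1 (right), and the other symbols are sums of marker lists. Des is highest in mutant 3, where the skeletal muscle sum is lowest, and Ren1 has reads only in libraries 1 and 2 of each group.

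Ren1 was near the limit of detection. It encodes renin, the protease that starts the angiotensin cascade and is made by arteriolar cells of the kidney once its vessels form. Ren1 had 2, 6, 0 and 0 reads in mutants 1 to 4, against 8, 6, 0 and 0 reads in controls 1 to 4. These are 1.91, 6.39, 0 and 0 normalised counts in mutants and 6.80, 6.20, 0 and 0 in controls. In each group the libraries numbered 3 and 4 held no read, which allows up to 3 reads, or 3.36 normalised counts in mutants and 2.91 in controls. Such limits cover counting error only. No difference between the groups was detectable at this depth (exact two-sided permutation p = 0.8286), and no fold change is given.

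Other transcripts were also highest in the 4 libraries with Ren1 reads. The sum of 8 liver markers was 150, 115, 41.4 and 16.1 in mutants 1 to 4, against 744, 100, 17.4 and 15.04 in controls 1 to 4, so the 4 libraries with Ren1 reads had the 4 highest sums. The same 4 libraries had the highest levels of the pericyte channel genes Abcc9 and Kcnj8, named after their values were seen. The angiotensin receptor gene Agtr1a also had its 4 highest levels there, at 19.1 and 25.6 in mutants 1 and 2 and 34.9 and 32.0 in controls 1 and 2. It had at most 17.9 in the other libraries. Cspg4, Akr1b7 and Rgs5 did not have this order. Cspg4 was highest in control 4 (377) and the renin cell gene Akr1b7 in control 3 (150). Rgs5 was lower in mutant 2 (441) than in control 3 (543) and control 4 (494). Abcc9 stood at 537, 548, 278 and 257 in mutants 1 to 4, against 556, 509, 350 and 86.5 in controls 1 to 4. Kcnj8 stood at 137, 142, 95.2 and 76.3 in mutants 1 to 4, against 174, 205, 94.9 and 49.8 in controls 1 to 4. The part of other tissue or of renal vessel wall cells in the Ren1 reads was not tested. The fetal adrenal gland, which lies on the kidney, also makes renin in mice. The sum of 8 adrenal markers was 292 to 321 in mutants and 301 to 340 in controls. Among them the steroid enzyme gene Cyp11a1 had reads in all 8 libraries, at 3.22 to 5.73 in mutants and 0.940 to 3.88 in controls. The cholesterol transport gene Star had 66.8 to 80.7 in mutants and 63.8 to 69.3 in controls. Cyp11b1, Cyp21a1 and Hsd3b1 had at most 1.7 normalised counts in any library. Some mouse strains carry a near-identical second gene, Ren2, which was listed with 1 read in control 1. Reads that fit both could not be assigned with certainty, so the level of Ren1 is uncertain to that extent.

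Ren1 lies on chromosome 1 from 133350510 to 133360325 of GRCm38. Its window at chr1:133350424-133350723 is shown for the 1 match it held, a TATA box at position -29. The TATA box letters occurred in 13.6% of all windows and in none of the other 7 genes with a window.
Ren1: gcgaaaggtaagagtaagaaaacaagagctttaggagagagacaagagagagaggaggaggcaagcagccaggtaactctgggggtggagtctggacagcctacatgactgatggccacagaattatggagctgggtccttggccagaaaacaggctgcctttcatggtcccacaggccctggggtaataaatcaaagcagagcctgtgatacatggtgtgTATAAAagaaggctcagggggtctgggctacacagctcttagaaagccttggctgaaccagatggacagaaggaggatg

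The remaining coordinates in GRCm38 are as follows. Pdgfra spans 75152292 to 75198215 and Pdgfa 138976014 to 138997370 of chromosome 5, Pdgfrb 61045150 to 61085061 of chromosome 18, and Pdgfb 79995874 to 80014977 of chromosome 15. Rgs5 spans 169655501 to 169695813 of chromosome 1 and Mcam 44134469 to 44142727 of chromosome 9. Exons of 5 of the 10 genes (Pdgfra, Pdgfa, Pdgfc, Mcam and Des) overlap exons of a gene on the opposite strand in GENCODE vM21. Where counting ignored strand, reads from both could not be told apart.

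Levels of different genes were compared per kilobase of exon. In controls Pdgfra was the highest at 295 ± 36.8 normalised counts per kilobase, followed by Pdgfrb (240 ± 16.9), Pdgfc (225 ± 17.9), Mcam (212 ± 14.7) and Des (182 ± 22.4, SD, n = 4 each). Neighbours in this order overlapped over the 4 controls. Below them, each apart from its neighbours, came Rgs5 (114 ± 5.02) and Pdgfa (68.0 ± 6.21). Cspg4 (29.6 ± 1.92) and Pdgfb (28.0 ± 4.80) overlapped, and Ren1 came last. In mutants Pdgfc was the highest at 267 ± 15.1, and Pdgfra had 247 ± 21.8 and Des 230 ± 38.4 per kilobase. These 3 genes overlapped over the 4 mutants, so no order among them is read. The ligand gene of PDGF-C stood above those of chains A and B in every library of both groups. The plot of levels per exon length shows these steps.

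**Figure D3:**
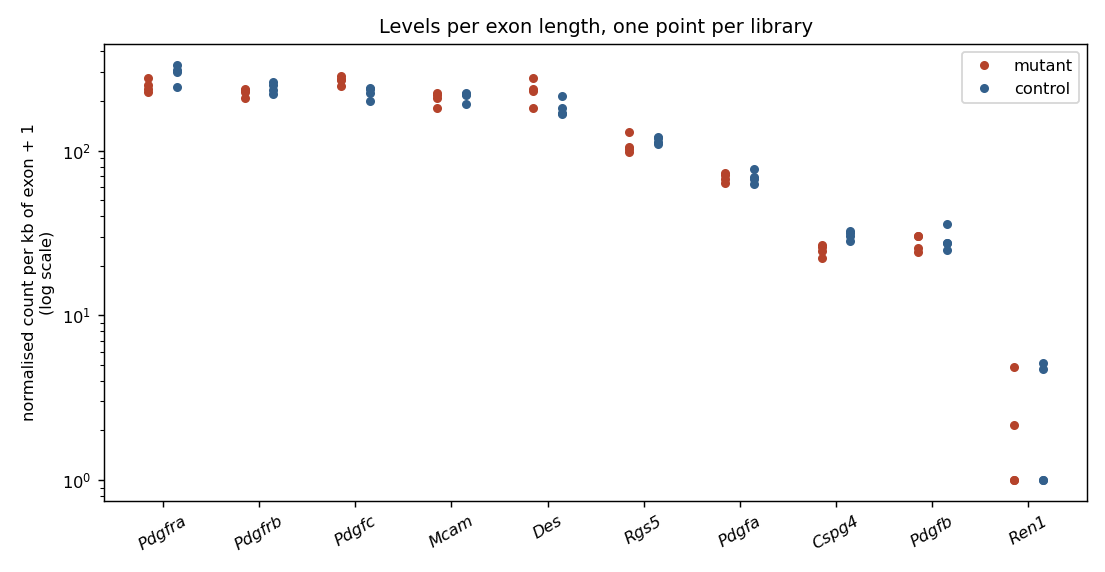
Normalised read count per kilobase of exon, plus 1, on a log scale (vertical axis) for the 10 genes (horizontal axis), with 1 point per library, mutants in red and controls in blue. Levels of Pdgfra, Pdgfrb, Pdgfc, Mcam and Des lie close together, and those of Cspg4 and Pdgfb are lower.

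Other genes of the PDGF pathway were called in neither direction by limma with all 8 libraries. Of 25 other genes of the pathway (among them Pdgfd, activating proteases, adaptors and kinases), all were tested and 0 were called by limma, while 3 had an unadjusted p under 0.05, all lower in mutants. Of all tested genes 8.70% had such a p, 5.17% with lower values in mutants. Their median log2 fold change was 0.0018. Pik3r1, which encodes the p85 regulatory subunit of phosphoinositide 3-kinase, had 1484 to 1650 in mutants and 1652 to 2214 in controls, without overlap (log2 fold change -0.32, adjusted p = 0.110 by limma). Pik3r1 passed by DESeq2 (adjusted p = 0.00401) and by limma without control 4 (adjusted p = 0.00798) and without control 4 and mutant 2 (adjusted p = 0.0188). Gab1, an adaptor of receptor tyrosine kinases, had 664 to 765 in mutants and 767 to 829 in controls (log2 fold change -0.15, adjusted p = 0.359 by limma). Nrp1, a co-receptor of several growth factors, had 2454 to 2668 in mutants and 2562 to 2815 in controls (log2 fold change -0.10, adjusted p = 0.450 by limma). For Pdgfd, the remaining ligand gene, the levels were 82.9 to 147 in mutants and 118 to 142 in controls (log2 fold change -0.30, adjusted p = 0.717 by limma).

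Other pericyte and mesangial genes gave 0 calls by limma among 17 tested of 20 listed, with 4 at an unadjusted p under 0.05, all lower in mutants (5.17% of all tested genes). The median log2 fold change of the list was -0.025. Ednra, the endothelin receptor of vascular wall cells, had 446 to 575 in mutants and 590 to 718 in controls, without overlap (log2 fold change -0.35, adjusted p = 0.142 by limma). Anpep, which encodes aminopeptidase N, had 249 to 332 in mutants and 325 to 498 in controls (log2 fold change -0.46, adjusted p = 0.192 by limma). Both passed by DESeq2 (adjusted p = 0.0271 for Ednra and 0.0313 for Anpep), and Anpep also by limma without control 4 (adjusted p = 0.0259) and without control 4 and mutant 2 (adjusted p = 0.0435). Foxc1, a forkhead factor of vascular mesenchyme, had 616 to 731 in mutants and 686 to 982 in controls (log2 fold change -0.29, adjusted p = 0.424 by limma). Foxc1 passed without controls 1 and 2 (log2 fold change -0.50, adjusted p = 0.0328 by limma), while without control 4 and mutant 2 it was at -0.18 (adjusted p = 0.538 by limma).

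Renin cell and renin-angiotensin genes gave 0 calls by limma among 18 tested of 20 listed, with 2 at an unadjusted p under 0.05, both lower in mutants (5.17% of all tested genes), and a median log2 fold change of -0.049. Agtr2, the type 2 angiotensin receptor of embryonic mesenchyme, stood at 673, 927, 569 and 614 in mutants 1 to 4, against 1507, 1594, 1093 and 810 in controls 1 to 4. Only mutant 2 reached above a control, control 4. On the log2 scale Agtr2 differed by -0.82 (SE 0.20, adjusted p = 0.130 by limma), the largest of any gene named from these 3 lists. Without controls 1 and 2 its log2 fold change was -0.46 (adjusted p = 0.440 by limma). Agtr2 passed without control 4 (log2 fold change -1.01, adjusted p = 0.0134 by limma), without control 4 and mutant 2 (log2 fold change -1.16, adjusted p = 0.00268) and with the skeletal muscle score as a covariate (log2 fold change -0.68, adjusted p = 0.00420 by limma). Gja5, the connexin 40 gene of arterial endothelium and renin cells, had 120 to 171 in mutants and 141 to 315 in controls (log2 fold change -0.55, adjusted p = 0.426 by limma). Without controls 1 and 2 the log2 fold change of Gja5 was -0.23 (adjusted p = 0.770 by limma). Without control 4 it was -0.75 (adjusted p = 0.0526 by limma), and without control 4 and mutant 2 it was -0.83 (adjusted p = 0.0542 by limma). Gja4, the connexin 37 gene, had 102 to 118 in mutants and 99.7 to 146 in controls (log2 fold change -0.25, adjusted p = 0.647 by limma).

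**Figure D4:**
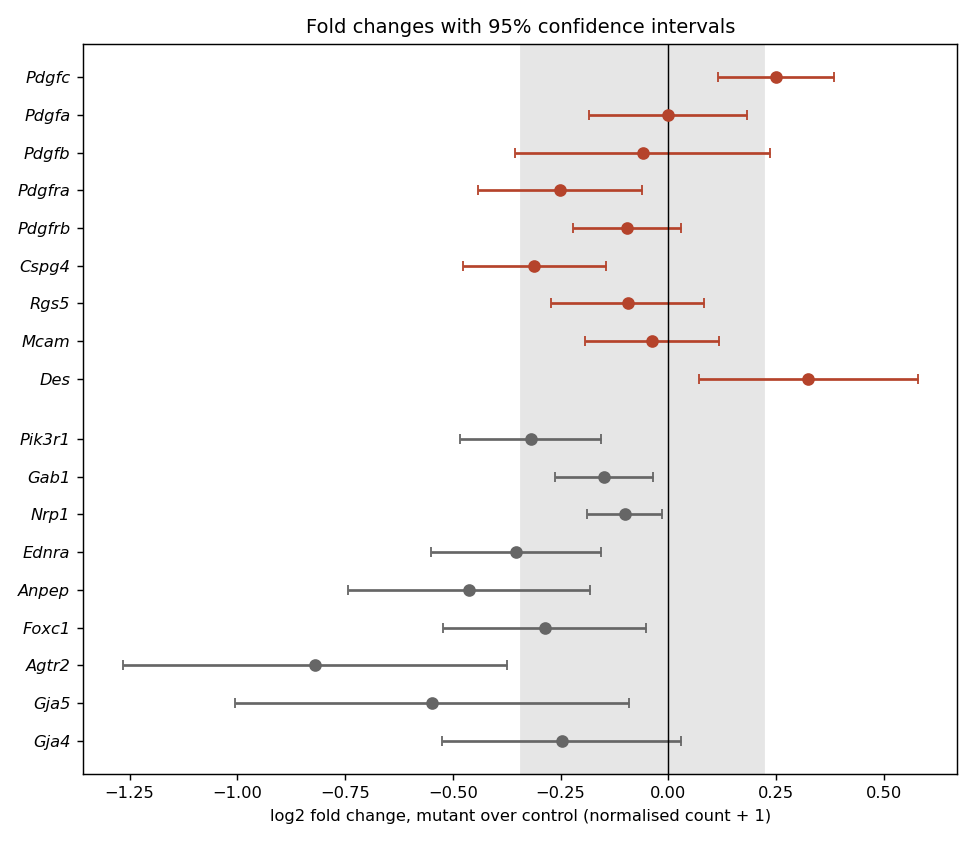
Log2 fold changes of mutant over control (horizontal axis) with 95% confidence intervals, for the 9 tested genes (red) and the 3 genes with the smallest p from each list of related genes (grey). The shaded band holds the fold changes of all tested genes between the percentiles 5 and 95, from -0.34 to 0.22.

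How far each difference stood from the threshold changed with the libraries kept, as the plot of adjusted p-values shows. Leaving out control 4 moved Pdgfra and Pdgfc towards the threshold. Every omission raised the adjusted p of Cspg4, to 0.138 to 0.321 by limma, highest without control 2. For Pdgfc every omission but that of control 4 raised it. Des had its highest adjusted p, 0.743 by limma, without mutant 3. Fits with fewer libraries also have less power, and the part of single libraries in these shifts was not tested. No single omission brought Cspg4, Pdgfc or Des past the threshold. The number of genes called in the whole table, 78 with all libraries, moved in the same fits between 18 (without control 3) and 185 (without control 4). As a share of all tested genes, calls came to 0.204%, 0.183%, 0.146% and 0.760% without mutants 1 to 4, and to 0.336%, 0.226%, 0.131% and 1.35% without controls 1 to 4. None of the 9 genes was called by limma with no filter on low values (0.351% of genes called), a filter at a mean of 50 (0.715%), TMM scaling (0.606%) or a pseudocount of 0.5 (0.570%) or 4 (0.577%).

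**Figure D5:**
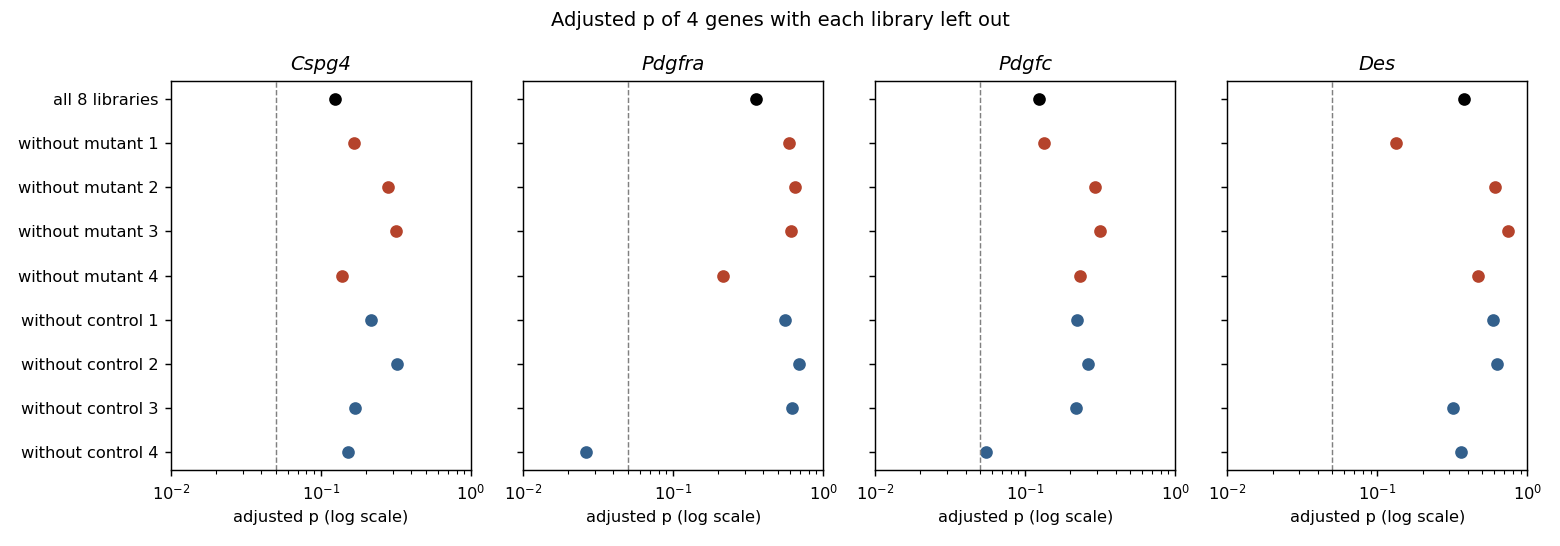
Adjusted p by limma on a log scale (horizontal axes) for Cspg4, Pdgfra, Pdgfc and Des with all 8 libraries (black) and with each mutant (red) or control (blue) library left out. The dashed line is 0.05. Only Pdgfra without control 4 lies left of it.

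For each tested gene the 3 tested genes with the most similar pattern were those with the smallest root mean square difference of centred log2 values over the 8 libraries. For Pdgfra the closest was 2510009E07Rik, at a difference of 0.052 against a spread of 0.19 in Pdgfra itself, then 4932415G12Rik and Copz2. For Pdgfc they were Tmem42 (0.044, against a spread of 0.15 in Pdgfc), Pfkl and Tril. For Cspg4 they were Pmm1 (0.069, against 0.18), Ctbs and Trim16. For Des they were Casq1 (0.10, against 0.25), Cntn2 and Nudt16. Closest to Pdgfrb was B4galt1 (0.023, against 0.094), to Pdgfa Uqcrq (0.030, against 0.096) and to Pdgfb Gnb5 (0.068, against 0.18). Closest to Rgs5 was Exoc3l (0.049, against 0.13) and to Mcam Pard3b (0.027, against 0.10). No gene of the 10 was among the 3 closest of another.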

How the data were processed

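RNA of 8 libraries was made from 500 ng of input with a TruSeq poly(A) kit, per the labels. The tools named in the submitters' processing notes are DESeq2 1.4.5, HTSeq and TopHat2 2.0.12, and the build is mm10 (GRCm38). The annotation and the strand setting of counting are not given in the sources used here. The authors deposited 1 table in which each library's signal is its gene read counts divided by 1 size factor. All values (100% within 0.01 read) were whole multiples of 1 step per library, so whole reads were recovered. The table also holds the authors' fold (ratio of means), its log2 and p-values, per the file headers.

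Values were taken as log2(value + 1), a mean of 10 or more was required (13692 of 23337 genes), and limma 3.58.1 with an intensity trend (R 4.3.3) compared 4 mutant with 4 control libraries, two-sided, with Benjamini-Hochberg adjustment over all tested genes. The recovered reads were tested with edgeR 4.0.16 and DESeq2 1.42.0 as alternatives. Other alternatives changed the pseudocount, filter, scaling, block, covariate and libraries. The fit was tested on simulated data. No library of a group repeated another, since chi-square divided by its degrees of freedom was 2.89 to 10.98 within groups. Exons, coordinates and lengths came from GENCODE vM21 and promoter windows from RefSeq. Named genes are the 10 genes, the genotype check (Smo, Gli1, Ptch1, Hhip and Foxd1), the 3 smallest p of each of 3 related lists and the 3 most similar genes. Pdgfd and genes printed as markers for single libraries were named after their values were seen. Genes and lists were chosen with earlier results of these data known. Figures used matplotlib 3.10.9.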

Additional observations from a re-analysis of the deposited data

Results flagged for a closer look

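Mcam stood at 637 in control 4, against 728 to 742 in controls 1 to 3, a gap that is wide for 4 values. It was the single such case among 48 groups of 4 values checked, of which 20 belonged to the 10 genes, and chance alone gives about 2.4.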

How the results depend on the processing

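The count of the 9 genes called was 0 in 16 of 20 alternatives. It was 1 by DESeq2 (Pdgfc), 1 without control 4 and mutant 2 (Pdgfra), 3 with the sample number as a replicate block (Cspg4, adjusted p = 0.0392, Pdgfc, 0.0369, and Des, 0.0263, with 1.69% of all tested genes called) and 0 to 1 with 1 library left out. Same-numbered samples deviated together with correlations of 0.32, 0.29, 0.29 and 0.064. For numbers 1 to 3 this was the highest value of both samples. Mutant 4 correlated more with control 3 (0.10), and control 4 more with mutant 3 (0.15). Since number 4 did not match, the numbers were not taken to pair samples. Of the related genes, the block called Agtr2 (adjusted p = 0.00251), Gja5 (0.0363) and Ednra (0.0462). Over all genes, 78 calls became 214 by DESeq2, 232 with the replicate block, 2 without control 2 and mutant 2, 29 without controls 1 and 2, 146 without control 4 and mutant 2, and 18 to 185 with 1 library left out. The causes were not tested. Directions of Pdgfra, Pdgfrb, Pdgfc, Cspg4, Rgs5 and Des held in all 20 alternatives. Pdgfa turned to 0.069 without control 2 and mutant 2, to 0.067 when controls 1 and 2 were left out and to 0.026 with the muscle covariate, and ranged from -0.045 to 0.058 with 1 library left out. Mcam turned to 0.0067 without controls 1 and 2. With 1 library left out Mcam ranged from -0.089 to 0.025 and Pdgfb from -0.13 to 0.051. No scaling moved the median of all genes by more than 0.1. Depth limits Ren1 to levels above about 3 reads a library.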

Other observations

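Agt, Ace, Agtr1a and Akr1b7, named here after their values were seen, ranged from near 0 to about the level of Pdgfb. Agtr2 was higher, at 569 to 927 in mutants and 810 to 1594 in controls. Gja5 also had higher means, with 120 to 171 in mutants and 141 to 315 in controls. The list of 20 renin cell and renin-angiotensin genes summed to 23375 to 25418 in mutants and 24498 to 27641 in controls, so other genes of it stood far higher. Agt, the gene of the renin substrate angiotensinogen, had at most 2.24 normalised counts in mutants and 1.70 in controls. Ace, the converting enzyme gene, had 7.52 to 18.1 in mutants and 5.64 to 21.7 in controls, and the angiotensin receptor gene Agtr1a had 16.1 to 25.6 in mutants and 10.3 to 34.9 in controls. Akr1b7, an aldo-keto reductase gene expressed in renin cells of mice, had 97.4 to 117 in mutants and 59.2 to 150 in controls. None of the 3 tested genes Ace, Agtr1a and Akr1b7 passed (adjusted p = 0.882, 0.956 and 0.966 by limma).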
